A study of Homo sapiens with 6 samples.

Results

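The genes described here encode CTCF and the cohesin machinery of human cells: *CTCF*, *RAD21*, *SMC1A*, *SMC3*, *STAG1*, *STAG2*, *NIPBL*, *MAU2*, *WAPL* and *PDS5A*. They were chosen by name, as 10 of the 20037 protein-coding genes of the RefSeq table of GRCh38.p14, and every summit inside these genes or within 20 kb of either end was taken. Summits of different libraries within 250 bp of the strongest one were joined into a locus, which gave 64 loci at these genes among 123131 in the series.

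Accessible chromatin was mapped by ATAC-seq in H1 cells, a human embryonic stem cell line that is pluripotent and was grown in mTeSR1 on Matrigel. In ATAC-seq a transposase cuts accessible DNA, and a summit is the position of strongest signal within a called peak. Cells of all groups received a lentiviral short hairpin RNA packaged in 293T cells and were selected with puromycin. A hairpin was directed against HNRNPU in 4 libraries, of which 2 carried shHNRNPU #1 and 2 carried shHNRNPU #2, and against luciferase in the 2 control libraries, called shLUC. HNRNPU encodes an abundant nuclear RNA-binding protein that associates with chromatin, and the comparison asks which accessible sites differ when it is targeted. The labels do not say whether the repeats came from separate cultures, so a p-value measures only the spread between these libraries.

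Cohesin is a ring-shaped complex built from the ATPase subunits SMC1A and SMC3, the linker RAD21 and a STAG subunit. NIPBL and MAU2 load it onto DNA, WAPL and PDS5A help to release it, and CTCF, a zinc finger protein, halts it at oriented binding sites and so sets the bases of chromatin loops. The complex also holds sister chromatids together, and dividing cells such as pluripotent stem cells need it for each division.

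Lists held from 52168 to 63519 summits, of which 34 to 40 lay at the 10 genes. Each summit carries the −log10 q-value of its peak within its own library, here called its score. Scores were not normalised between libraries, so each was turned into a percentile by score within its list, from 0 for the weakest summit to 100 for the strongest. Read depth is unknown, and a locus without a summit was only not called. In bulk chromatin, fewer cells with an open site and less opening per cell cannot be told apart. All 5 pluripotency markers examined had a summit at a gene start in all 6 libraries, but so did 5 of 6 markers of other cell types, with *ALB* at 0 libraries, so presence of a start summit did not separate cell types. For *POU5F1*, *SOX17* and *COL1A1*, whose start is not known here, either gene end was used. Of these 11 markers, summit numbers did not overlap between the groups at 1, *NANOG*, which had fewer with shHNRNPU (3.92% of all tested genes), and start percentiles at 2 of the 10 with a start summit, *DPPA4* and *PAX6*, which were lower (7.21% of all tested genes). The other 8 overlapped. Among them the difference of means, shHNRNPU minus shLUC, was 11.1 points at *SOX2* (shLUC at 49.4 and 78.8) and 11.7 at *SOX17* (shLUC at 41.2 and 68.6). It was 13.3 at *TBXT*, 8.67 at *COL1A1*, 2.12 at *POU5F1*, 1.69 at *LIN28B*, 0.343 at *GATA6* and −3.27 at *NANOG*. The part of any such difference in the results was not tested. Around *HNRNPU* itself, on which a hairpin acts through its RNA and not its chromatin, there were 4 to 6 summits with shHNRNPU and 3 or 4 with shLUC, so the lists do not measure the knockdown.

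The promoters are shown first, since the strongest summit of a gene's window was at its start, or for *RAD21* at a gene end, in all 60 pairs of gene and library. Of these sequences from RefSeq (GRCh38.p14), 12 matched 9 of the 10 genes, *SMC1A* having 2 starts and *STAG2* having 3. *RAD21* has no entry. Printed here are the 250 bases before the start of *STAG1* and *NIPBL*, the genes with the highest and the lowest start percentile. Those of *CTCF* follow, and those of the first start of *STAG2*, whose strongest start summits lay farthest apart. They run 5′ to 3′ on the gene's strand, and capitals mark the summits that fell inside the printed bases. Those came from all 6 libraries at *STAG1*, 5 at *NIPBL* and 4 each at *CTCF* and *STAG2*. The positions of the sequences are chr3:136752379-136752628 on the minus strand, chr5:36876519-36876768, chr16:67562276-67562525 and chrX:123960310-123960559, the last 3 on the plus strand.
STAG1: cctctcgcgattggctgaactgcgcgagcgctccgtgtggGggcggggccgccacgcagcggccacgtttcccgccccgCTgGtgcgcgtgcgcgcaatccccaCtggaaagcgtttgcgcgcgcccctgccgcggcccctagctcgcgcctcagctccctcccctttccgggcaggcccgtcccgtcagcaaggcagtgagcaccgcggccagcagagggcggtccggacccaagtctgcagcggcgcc
NIPBL: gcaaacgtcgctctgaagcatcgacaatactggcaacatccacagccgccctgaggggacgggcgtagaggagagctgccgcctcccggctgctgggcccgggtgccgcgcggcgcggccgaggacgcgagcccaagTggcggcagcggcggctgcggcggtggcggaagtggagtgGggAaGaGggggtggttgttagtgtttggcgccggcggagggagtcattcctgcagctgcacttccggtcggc
CTCF: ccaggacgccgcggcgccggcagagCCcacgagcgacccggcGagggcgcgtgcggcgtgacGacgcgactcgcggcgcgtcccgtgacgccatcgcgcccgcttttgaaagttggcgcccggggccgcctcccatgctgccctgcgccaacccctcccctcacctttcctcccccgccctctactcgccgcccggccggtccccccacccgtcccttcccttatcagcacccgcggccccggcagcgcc
STAG2: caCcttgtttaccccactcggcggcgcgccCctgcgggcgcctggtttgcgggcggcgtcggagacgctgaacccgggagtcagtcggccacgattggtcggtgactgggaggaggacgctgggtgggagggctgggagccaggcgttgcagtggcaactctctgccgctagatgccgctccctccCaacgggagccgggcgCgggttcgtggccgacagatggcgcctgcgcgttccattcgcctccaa

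These promoters were rich in G and C. The 12 member promoters had a median GC content of 67%, with a range from 52.8% at *SMC3* to 77.2% at *WAPL*, and the median of all 22175 promoters was 62%. The observed over expected ratio of CpG had a median of 0.968 at the members and 0.711 at all promoters. The GC box GGGCGG, searched like every motif on both strands, was present in all 12 member promoters and in 53.7% of all promoters. The letters ATGGCG, the core bound by YY1, occurred at *CTCF*, *SMC3*, *STAG2* and *WAPL*, or 4 of 12 promoters, and in 7.18% of all promoters. The core AGNGGGCG of the CTCF motif occurred at *CTCF*, *PDS5A*, *STAG1* and *WAPL*, and in 17.9% of all promoters. Of the 3 promoters with the ETS core CCGGAAG, which 10.7% of all promoters hold, 2 belonged to *SMC1A* and 1 to *NIPBL*. The 2 *SMC1A* sequences overlap for most of their length and share this site, but count as 2 promoters throughout. CCAAT was found in 5 member promoters and 32.7% of all, and the NRF1 core GCATGCGC in 0 and 3.26%. The AGNGGGCG and GGGCGG letters can overlap. A match is a description of the letters, not of binding.

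Start loci were widely shared between libraries. At 9 of the 10 genes a locus at the start was held by all 6 libraries, and at *NIPBL* the locus at −113 bp was held by 5. Counting any summit within 2000 bp of a start (or gene end), all 10 members and 13835 of 20037 protein-coding genes had one in all 6 libraries. For the 9 genes with a known start, 51 of the 54 strongest start summits, 1 per gene and library, lay upstream of the first start and 49 of them within 300 bp, with a median distance of −112 bp. The 3 downstream ones were all at *STAG2*. At 7 of the genes the locus nearest the start lay within 200 bp of the start of another gene, so its accessibility belongs to a shared interval. The neighbours were *CTCF-DT* at 8 bp, *NIPBL-DT* at 38 bp, *STAG1-DT* at 83 bp, *SUGP1* at 83 bp from the *MAU2* locus, *WAPL-DT* at 93 bp, *RIBC1* at 113 bp from the *SMC1A* locus and *LOC105378483* at 159 bp from the *SMC3* locus.

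The genes differed in how strongly their starts ranked. By the mean percentile over the 6 libraries the order was *STAG1* at 99.6, *WAPL* at 96.9, *RAD21* at 95.6, *CTCF* at 94.4, *SMC3* at 93, *PDS5A* at 91, *SMC1A* at 87.4, *MAU2* at 85.1, *STAG2* at 69.8 and *NIPBL* at 69.4. The start of *STAG1* ranked above 99.1% of the 13835 protein-coding genes with a start summit in all libraries, and that of *NIPBL* above 23.2%. Of the 9 pairs of neighbours in this order only *STAG1* and *WAPL*, and *MAU2* and *STAG2*, had ranges over the 6 libraries that did not overlap. The spread was smallest at *STAG1*, with an SD of 0.243 percentile points, and reached 9.39 at *STAG2* and 10.2 at *NIPBL*.

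**Figure D1:**
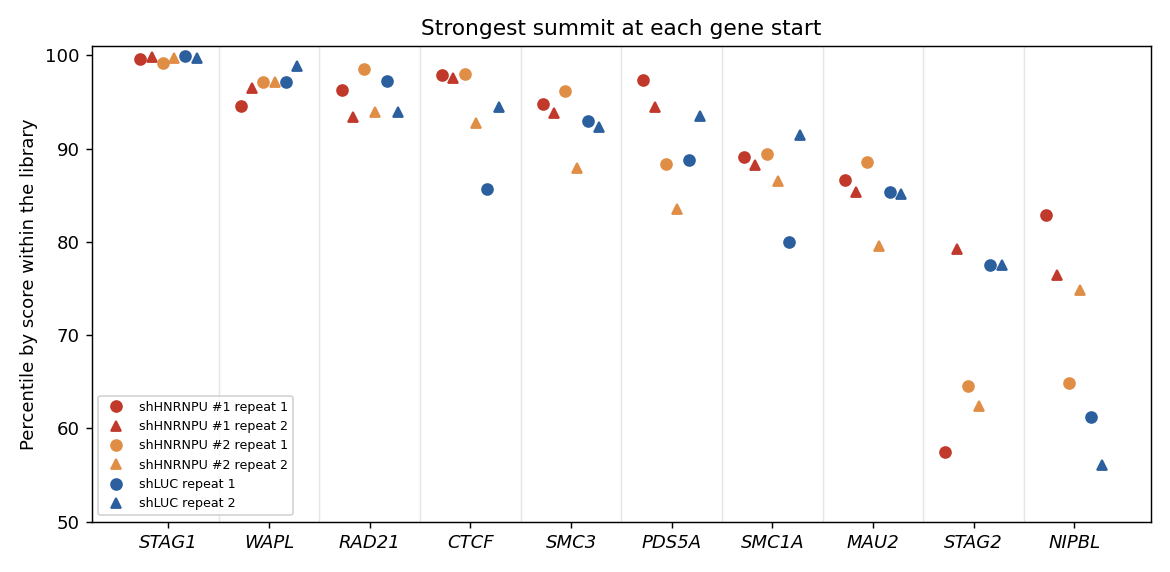
Percentile by score of the strongest summit within 2000 bp of each gene's start (y axis, from 50) in each library, with colour for the hairpin and shape for the repeat, and genes ordered by their mean over 6 libraries. *NIPBL* is the gene whose 4 shHNRNPU points, 64.9 to 82.9, all lie above its shLUC points, 56.1 and 61.2.

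Across the 10 genes no locus was lost or gained with the HNRNPU hairpins. Lost means present in both shLUC libraries and in none of the 4 shHNRNPU libraries, and gained the reverse. Of the 64 loci, 0 were lost, where 1.93% of all loci of the series were, and 0 were gained, where 0.88% of all loci were. Shares of that size amount to 1 or 2 loci of 64 at most, so the member counts were near the background. When 1 library is left out the counts change with the smaller demand: without shLUC repeat 1 there were 6 lost loci and 1 gained, without shLUC repeat 2 there were 3 and 2, and without shHNRNPU #1 repeat 2 there was 1 lost locus, at *STAG1*. Over all loci 10.4% were then lost and 2.52% gained without shLUC repeat 1, 10.6% and 2.56% without shLUC repeat 2, and 3% lost without shHNRNPU #1 repeat 2, so these counts too were near or under the background. The genes had 34, 37, 35 and 37 summits in the shHNRNPU libraries and 36 and 40 in the shLUC libraries. The groups overlapped, with means of 35.8 ± 1.5 (SD, n = 4) and 38 ± 2.83 (SD, n = 2).

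Of the member loci, 20 were held by all 6 libraries, or 31.2%, and 22 by 1 library alone, or 34.4%. In the windows of all protein-coding genes the shares were 23.3% and 35.6%. Loci held by 1 library were weak, with a median percentile of 16.8 and a range from 3.18 to 56.1. Of 21 loci inside a gene and away from its start, 12 were in 1 library and 1 was in all 6. Of 24 loci in the 20 kb flanks 10 were in all 6, and of 16 loci at known starts 8 were. The same split by place over all genes was not computed.

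**Figure D2:**
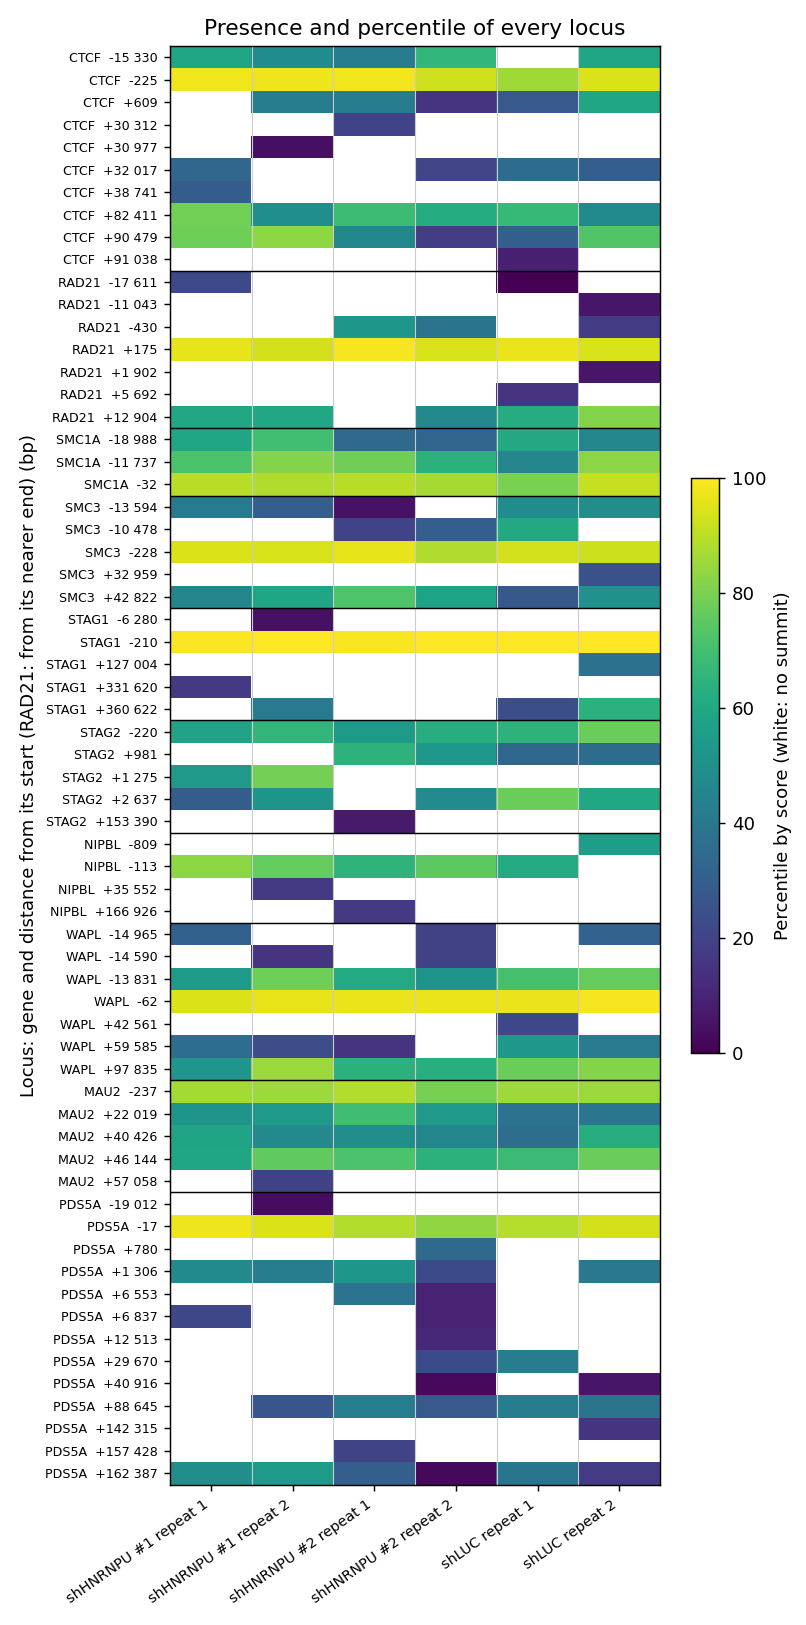
All 64 loci of the 10 genes (rows, named by gene and distance in bp from the first start, with upstream negative, and for *RAD21* from the nearer gene end with lower coordinates negative) in the 6 libraries (columns), coloured by percentile by score and white where no summit was called. The main start loci of most genes form the brightest rows, while further start loci, such as *CTCF* +609, are dimmer. No row is filled only in the 4 shHNRNPU or only in the 2 shLUC columns.

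*CTCF* (gene ID 10664, chromosome 16, 67562526 to 67639177, plus strand) had 10 loci and exactly 6 summits in every library. Its main start locus was centred at −225 bp, where a negative distance is upstream of the start. The start percentiles were 97.9 and 97.6 with shHNRNPU #1, 98 and 92.7 with shHNRNPU #2, and 85.7 and 94.5 with shLUC. The groups overlapped, since shLUC repeat 2 ranked above shHNRNPU #2 repeat 2. Group means were 96.6 ± 2.55 (SD, n = 4) and 90.1 ± 6.25 (SD, n = 2), a difference of 6.46 points (exact permutation test, two-sided, p = 0.267, Benjamini-Hochberg adjusted p = 0.711 over 13835 genes). The difference was 2.04 without shLUC repeat 1 and 10.9 without shLUC repeat 2. In shLUC repeat 1, the lowest, the summit was also the farthest upstream, at −342 bp against −255 to −188 bp in the others. A second start locus, 609 bp downstream, was weaker and held by 5 libraries, at percentiles 42, 42.2 and 15 with shHNRNPU and 28 and 58.6 with shLUC. The flank beyond the end of the gene held 2 loci in all libraries. That at 82411 bp from the start spanned 47.8 to 78.8, and that at 90479 bp, which lies in *CARMIL2*, spanned 18.1 to 83.1 with both extremes in shHNRNPU libraries.

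*RAD21* (gene ID 5885, chromosome 8, 116845934 to 116874776), the linker that closes the ring and is cut by separase at anaphase, was the 1 member whose summit numbers did not overlap between the groups. There were 3, 2, 2 and 3 summits with shHNRNPU against 4 and 5 with shLUC. The means were 2.5 ± 0.577 (SD, n = 4) and 4.5 ± 0.707 (SD, n = 2), a difference of −2 (exact permutation test, two-sided, p = 0.133, adjusted p = 1 over 18733 genes). The value 0.133 is the smallest that 15 assignments of 6 libraries allow. Lower numbers without overlap were found in 1 of 10 members and in 3.92% of all tested genes, and higher ones in 0 members and in 3.54%.

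The excess at *RAD21* in the controls came from weak summits. Of its 7 loci, 3 were held by a single shLUC library, at percentiles 6.03, 6.03 and 14.9, and none by a single shHNRNPU library. Counting only summits that scored 5 or more, the difference was 0.25, with the opposite sign. The strong locus at the upper end of the gene, in a region also annotated as *RAD21-AS1*, was at 96.3, 93.4, 98.5 and 93.9 with shHNRNPU and at 97.2 and 93.9 with shLUC, and the groups overlapped with equal means of 95.6. A flank locus 12904 bp beyond that end was lacking in shHNRNPU #2 repeat 1. It stood at 59.7, 59.8 and 47 in the other shHNRNPU libraries and at 61.8 and 81.3 with shLUC.

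*SMC1A* (gene ID 8243, X chromosome, 53374149 to 53422728, minus strand) had 3 loci, each in all 6 libraries, and 3 summits in every library. At its start, at −32 bp, percentiles were 89.1, 88.2, 89.4 and 86.5 with shHNRNPU and 80 and 91.4 with shLUC. The 4 shHNRNPU libraries thus lay between the control libraries. The 2 flank loci varied more, from 45.5 to 82.8 at −11737 bp, where *HSD17B10* starts 89 bp away, and from 32.5 to 69.6 at −18988 bp.

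*SMC3* (gene ID 9126, chromosome 10, 110567695 to 110606048, plus strand), the partner ATPase, had 3, 3, 4 and 3 summits with shHNRNPU and 4 and 4 with shLUC, and the groups overlapped (exact permutation test, two-sided, p = 0.4). Its start percentiles were 94.8, 93.8, 96.2 and 87.9 with shHNRNPU and 93 and 92.3 with shLUC, with the highest and the lowest both from shHNRNPU #2. The locus 42822 bp downstream, just beyond the end of the gene, stood at 45.5, 59, 72.3 and 58.2 with shHNRNPU and at 27.6 and 50.5 with shLUC. Its difference of 19.7 points was the largest among the 20 loci in all 6 libraries, but shLUC repeat 2 lay above shHNRNPU #1 repeat 1 (exact permutation test, two-sided, p = 0.267).

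*STAG1* and *STAG2* encode the alternative STAG subunits and differed at their starts. *STAG1* (gene ID 10274, chromosome 3, 136336236 to 136752378, minus strand) had its start locus, at −210 bp, at percentiles 99.6, 99.8, 99.2 and 99.7 with shHNRNPU and 99.9 and 99.7 with shLUC, with scores from 64.4 to 97.4. These 6 values lay within 0.7 points of each other. Although *STAG1* is the longest of the genes, at 416143 bp, it held only 5 loci and 1 to 3 summits a library. A locus 360622 bp downstream was in both shLUC libraries, at 24.2 and 63.7, and with shHNRNPU only in #1 repeat 2, at 41.6.

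*STAG2* (gene ID 10735, X chromosome, 123960560 to 124102656, plus strand) has 3 annotated starts, and its strongest start summit changed place between libraries. It lay at −269 and 1275 bp from the first start with shHNRNPU #1, at 981 and −64 bp with shHNRNPU #2, and at 2637 and −220 bp with shLUC. Percentiles of these summits were 57.5, 79.2, 64.5 and 62.4 with shHNRNPU and 77.5 in both shLUC libraries. The groups overlapped through shHNRNPU #1 repeat 2, with means of 65.9 ± 9.33 (SD, n = 4) and 77.5 and a difference of −11.6 points (exact permutation test, two-sided, p = 0.4). At the locus at −220 bp, held by all 6 libraries, the values were 57.5, 66, 54.6 and 62.4 with shHNRNPU and 64.7 and 77.5 with shLUC.

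Between the starts of *STAG2* the hairpins differed in position. A locus at 981 bp was held by both shHNRNPU #2 libraries, at 64.5 and 53.2, and by both shLUC libraries, at 33.8 and 35.3, but not by shHNRNPU #1. The shHNRNPU #1 libraries instead held a locus 294 bp farther on, at 53.6 and 79.2. With a match distance of 500 bp these positions join into 1 locus present in all 6 libraries, at which the shHNRNPU values of 53.2 to 79.2 lie above both shLUC values. The share of all loci without overlap at that match distance was not computed. At the start locus at 2637 bp the order was reversed, with 29.4, 51.6 and 48.2 in shHNRNPU libraries and 77.5 and 60 in shLUC libraries. That locus was lacking in shHNRNPU #2 repeat 1. Loci held by shHNRNPU #1 alone numbered 1 of 64 at the members and 1.28% of all loci, and loci lacking in shHNRNPU #1 alone numbered 1 of 64 and 0.435%.

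**Figure D3:**
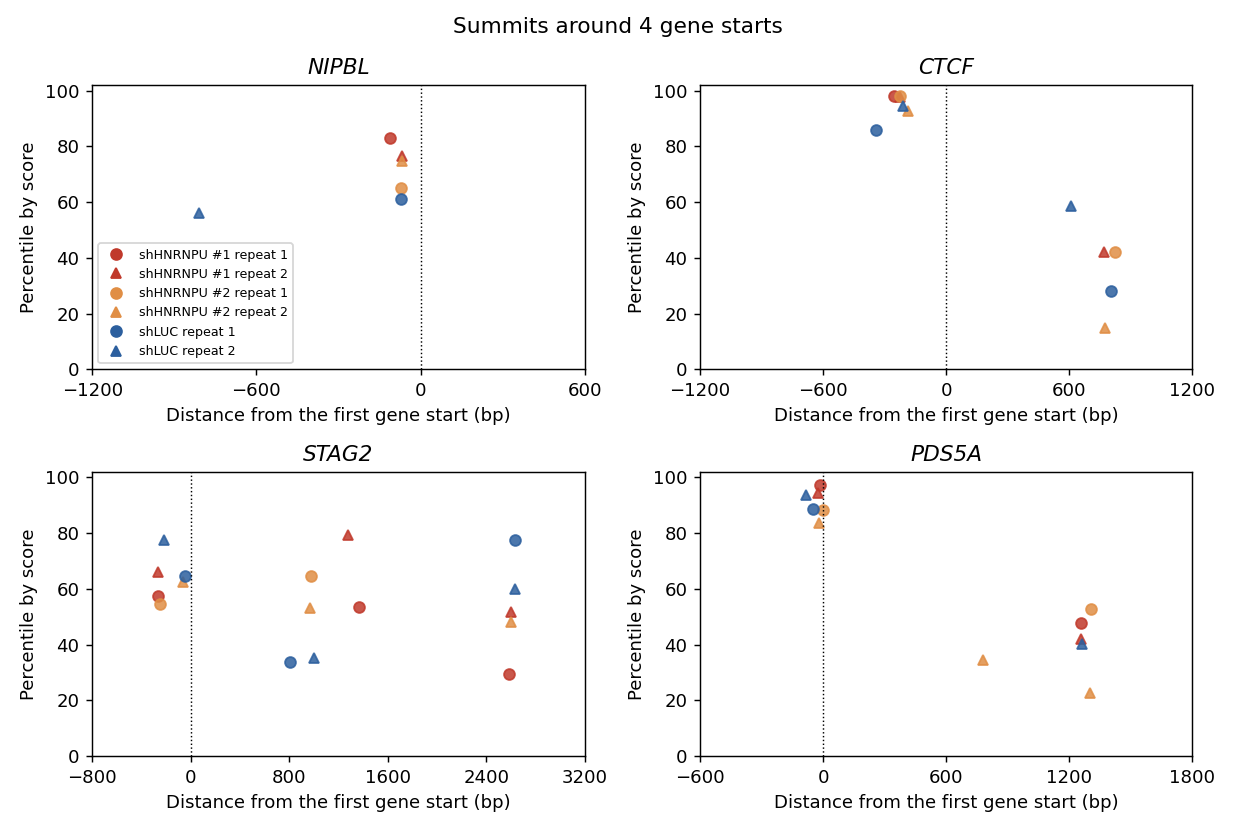
Summits around the starts of *NIPBL*, *CTCF*, *STAG2* and *PDS5A*, with distance from the first start in bp (x axis, upstream negative, dotted line at the start) and percentile by score (y axis), coloured by hairpin and shaped by repeat. At *NIPBL* 5 libraries share a position while shLUC repeat 2 has its summit at −809 bp, and at *STAG2* summits spread from −269 to 2637 bp.

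*NIPBL* (gene ID 25836, chromosome 5, 36876769 to 37066413, plus strand), the loader that also drives loop extrusion, was the 1 member whose start percentile did not overlap between groups. It was 82.9 and 76.4 with shHNRNPU #1, 64.9 and 74.8 with shHNRNPU #2, and 61.2 and 56.1 with shLUC. All 4 shHNRNPU libraries were higher, with means of 74.7 ± 7.45 (SD, n = 4) and 58.6 ± 3.65 (SD, n = 2), a difference of 16.1 points (exact permutation test, two-sided, p = 0.133, adjusted p = 0.601 over 13835 genes). The raw scores were 22.1, 16.3, 10 and 17 against 10.2 and 8.21, so shHNRNPU #2 repeat 1 and shLUC repeat 1 were alike on that scale. Higher start percentiles without overlap were found in 1 of 10 members and in 15% of all tested genes, and lower ones in 0 members and in 7.21%. The member count was thus near the background. The summit of shLUC repeat 2 lay at −809 bp, 696 bp from the locus of the other libraries, so its value describes another position, and within 500 bp of the start that library had none. Inside this gene of 189645 bp there were only 2 further loci, each in 1 shHNRNPU library, at 16.8 and 16.9.

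*MAU2* (gene ID 23383, chromosome 19, 19320829 to 19358754, plus strand), which encodes the partner of NIPBL in loading, had 5 loci, 4 of them in all 6 libraries. Its start, at −237 bp, stood at 86.6, 85.3, 88.6 and 79.6 with shHNRNPU and at 85.3 and 85.1 with shLUC, and the controls lay within the range of the hairpins. The locus inside the gene at 19342848, 22019 bp downstream, was the 1 gene body locus in all 6 libraries. There the percentiles were 51.6, 54.1, 69.3 and 54 with shHNRNPU and 37.9 and 39.3 with shLUC. The groups did not overlap, with means of 57.3 ± 8.12 (SD, n = 4) and 38.6 ± 0.923 (SD, n = 2) and a difference of 18.7 points (exact permutation test, two-sided, p = 0.133). The scores from which these percentiles were ranked were 7.92, 8.23, 11.4 and 9.26 against 5.84 and 5.51. They are not a second measure. The locus was the 1 of 20 with higher percentiles without overlap, where 10.9% of all 25519 loci in 6 libraries were, and lower percentiles were found at 0 of 20, where 13.9% were.

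The starts of the release factors ranked high in both groups. *WAPL* (gene ID 23063, chromosome 10, 86435256 to 86521792, minus strand) stood at 94.6, 96.5, 97.1 and 97.1 with shHNRNPU and at 97.1 and 98.8 with shLUC, with overlapping groups and a difference of −1.62 points (exact permutation test, two-sided, p = 0.267). It had 5 summits in both shHNRNPU #1 and both shLUC libraries and 4 in both shHNRNPU #2 libraries. A locus 97835 bp from the start, in the flank beyond the end of the gene, ranged from 52.2 to 85.1 with shHNRNPU and was at 77.4 and 81.4 with shLUC. At another, at −13831 bp, the values were 54.3, 77.8, 61.3 and 51.8 with shHNRNPU and 70.8 and 76.4 with shLUC, so shHNRNPU #1 repeat 2 was the highest of all at both.

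*PDS5A* (gene ID 23244, chromosome 4, 39822863 to 39977911, minus strand), which binds the ring together with WAPL, had the most loci of the genes, 13. The hairpins lay on opposite sides of the controls at its start, at 97.4 and 94.4 with shHNRNPU #1, 88.3 and 83.5 with shHNRNPU #2, and 88.8 and 93.5 with shLUC. Both shHNRNPU #1 libraries were above and both shHNRNPU #2 libraries below the controls, so that the mean of 90.9 ± 6.2 (SD, n = 4) was close to the 91.1 ± 3.38 (SD, n = 2) of shLUC. The nearest values were close, 94.4 against 93.5 and 88.3 against 88.8. The share of all genes with this order was not computed. Summit numbers at *PDS5A* were 4, 5, 6 and 9 with shHNRNPU and 4 and 6 with shLUC. The 9 came from shHNRNPU #2 repeat 2, where 7 of them were under the 30th percentile, against 0 to 3 in the other libraries. A locus 6553 bp downstream was held by shHNRNPU #2 alone, at 37.9 and 9.62, the 1 of 64 member loci with that pattern, which 0.62% of all loci had. Its weaker summit, in shHNRNPU #2 repeat 2, also lies within 250 bp of the locus at 6837 bp, which shHNRNPU #1 repeat 1 holds at 21.7, so the pattern rests on a summit counted in 2 loci. The reverse pattern, lacking in shHNRNPU #2 alone, was found at 0 of 64 loci and 0.68% of all loci.

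**Figure D4:**
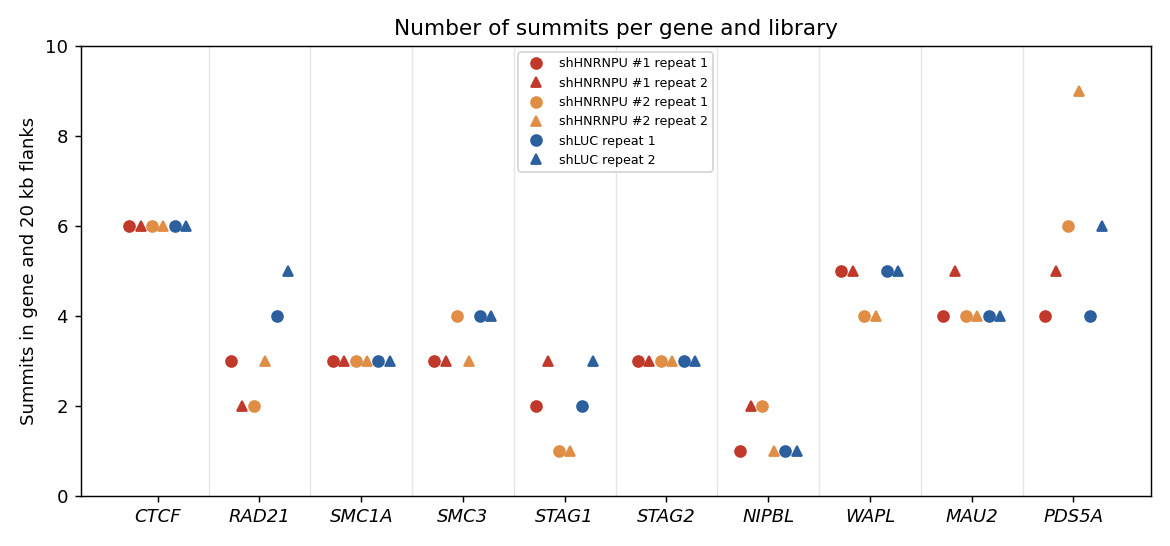
Number of summits in each gene and its 20 kb flanks (y axis) in each library, coloured by hairpin and shaped by repeat. *CTCF*, *SMC1A* and *STAG2* have the same number in all 6 libraries, the shHNRNPU points of *RAD21*, 2 or 3, lie below its shLUC points, 4 and 5, and *PDS5A* reaches 9 in shHNRNPU #2 repeat 2.

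Compared side by side, the 10 genes showed no common direction in summit numbers, start percentiles or the loci held by all 6 libraries. Summit numbers were higher on average with shHNRNPU at 3 genes, lower at 4 and equal at 3, and the median number per gene and library was 3, the same as over all 18733 genes tested. The mean start percentile was higher with shHNRNPU at 4 of 10 members and at 59.6% of all genes, with a median difference of −0.095 points at the members and 0.882 at all genes. Among the 20 loci in all 6 libraries 10 were higher and 10 lower, with differences from −13.3 to 19.7 and a median of 0.252. Where 1 shHNRNPU library alone lacked a locus, shHNRNPU lay below both shLUC libraries at *SMC3* −13594, *RAD21* +12904, *STAG2* +2637 and *WAPL* +59585. The groups overlapped at *CTCF* +609 and *PDS5A* +88645. Where 1 shLUC library alone lacked a locus, shHNRNPU lay above the other at *NIPBL* −113, with overlap at *CTCF* −15330 and *PDS5A* +1306. The share of all loci with these patterns was not computed. No gene of the whole table reached an unadjusted p under 0.05 in either measure (0 and 0 genes), which this design does not permit.

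**Figure D5:**
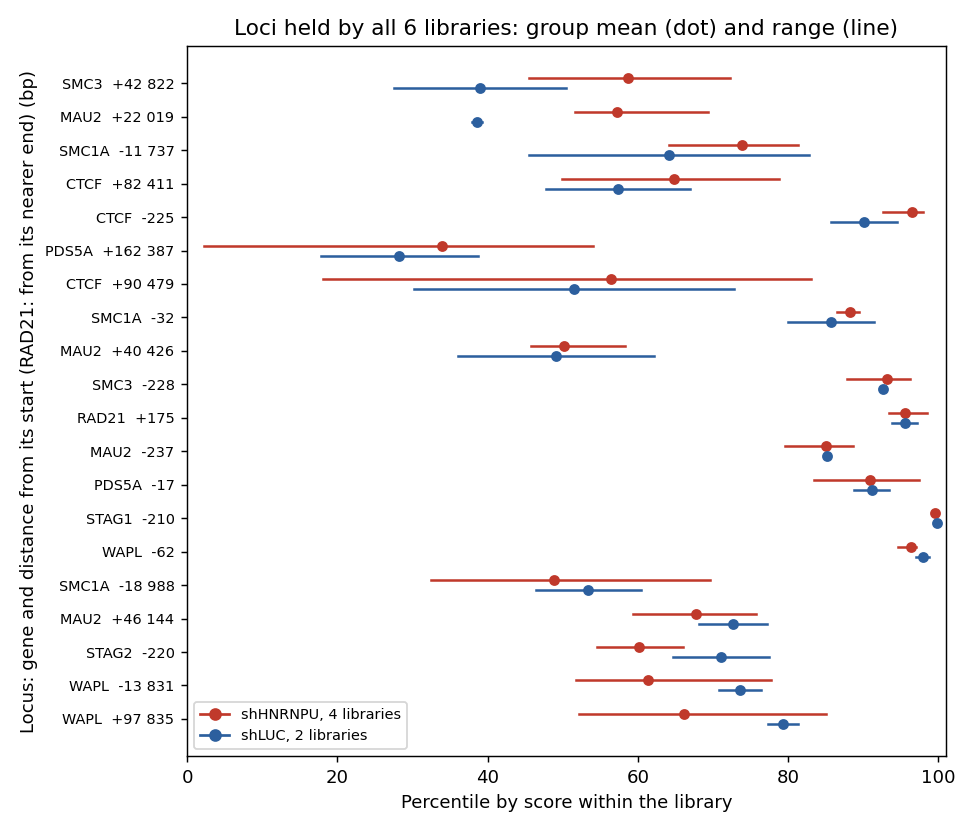
Percentile by score (x axis) at the 20 loci of the members held by all 6 libraries, with a dot for the mean and a line for the range of the 4 shHNRNPU and the 2 shLUC libraries, ordered by the difference of means. The lines overlap everywhere except at the *MAU2* locus at +22019, and differences run from 19.7 at the top to −13.3 at the bottom.

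The place of the summit within a shared locus varied between libraries. Over the 20 loci the spread between the 6 libraries was 48 to 252 bp, with a median of 112 bp. Positions did not overlap between the groups at 6 of 20 loci, against 14.1% of the 25519 loci of the series. At the *PDS5A* start the summits lay at −17, −24, −1 and −20 bp with shHNRNPU and at −47 and −83 bp with shLUC, so nearer the start with the hairpins against HNRNPU. At the *WAPL* start they lay at −143, −91, −111 and −137 bp with shHNRNPU and at −81 and −62 bp with shLUC, so farther from it. At *SMC3*, −67, −224, −228 and −229 bp stood against −234 and −230 bp, a gap of 1 bp between the groups. The remaining loci of this kind were the *RAD21* end locus, the *SMC3* locus at 42822 bp and the *MAU2* locus at 46144 bp, and the shifts had no common direction.

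Other genes of the pathway were read from lists chosen by function. Of 8 regulators of cohesin (*PDS5B*, *ESCO1*, *ESCO2*, *CDCA5*, *SGO1*, *ESPL1*, *PTTG1* and *HDAC8*) all 8 had a start summit in all 6 libraries. Among the 20037 protein-coding genes 13835 had one. Summit numbers of the regulators did not overlap between the groups at 0 of 8. Start percentiles did not overlap at 2, with 1 higher and 1 lower, where 15% of all tested genes were higher and 7.21% lower, so this count was near the background. They are named after their values were seen. *ESCO1*, an acetyltransferase of SMC3, stood at 97.9, 94.5, 95.9 and 97.3 with shHNRNPU and 85.2 and 89.5 with shLUC. Its start is not known here, nor is that of *ESCO2*, so either gene end was used for both. *SGO1*, which protects centromeric cohesin, stood at 95.5, 94.5, 93.7 and 95.4 with shHNRNPU and 97.5 and 98.6 with shLUC. Of the germline forms *STAG3*, *REC8*, *RAD21L1*, *SMC1B* and *CTCFL*, 4 of 5 had a start summit in all 6 libraries, *CTCFL* in 4, and summit numbers differed without overlap at 0 of 5. Start percentiles did so at 0 of the 4 that could be compared.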

How the data were processed

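ATAC-seq was performed on 50000 cells per library with 17 PCR cycles, per the labels. The submitters' processing notes name cutadapt, Bowtie2, SAMtools, MACS2 and deepTools, without versions or roles, and build hg38. The authors deposited 1 list of summits per library, each 1 bp wide and called without pooling, whose score, from the layout and a lowest value of 1.30 to 1.31, is the −log10 q-value that MACS2 writes. Read filters are not given in the sources used here. The article named with the series describes other samples and guided only the style.

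Groups came from the sample titles. Replicate lists shared 1.65% to 2.12% of positions, and lists of different groups 1.62% to 2.2%. All were kept as separate samples. Summits were taken by descending percentile, and each absorbed those within 250 bp. Presence was a summit within 250 bp of the centre. A gene start was within 2000 bp of a start in the RefSeq promoter table (GRCh38.p14), or of either gene end where that table has no entry. Means were compared by exact permutation over 15 assignments, two-sided by doubling the smaller tail, with Benjamini-Hochberg adjustment over all protein-coding genes. Motifs were searched on both strands of the 250 bases before each start. Every member is described. Genes of the other lists were to be described only where their summit numbers separate the groups, and the values of *ESCO1*, *SGO1* and the markers were added after they were seen. Loci in all 6 libraries were to be named for the 5 largest differences without overlap, of which there was 1, and others are given as part of their gene's description. The members and lists were chosen with earlier results of these data known. Alternatives were match distances of 100 and 500 bp, absence within 1000 bp, scores of 5 or more, lists trimmed to one size, gene-start distance of 500 bp, windows of 2 and 50 kb, leave-one-out, and permutation within repeats. Scripts were tested on simulated data. Python 3.11.15, numpy 2.4.6, pandas 2.3.3, scipy 1.17.1 and matplotlib 3.10.9 were used.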

Additional observations from a re-analysis of the deposited data

Results flagged for a closer look

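In 4 of the 32 sets of 4 shHNRNPU values examined, 1 library stood apart from the other 3 by Dixon's criterion. Chance meets it in about 1 of 20 sets of continuous values, a rate that does not hold for numbers of summits, where a single difference of 1 is enough. Summits at *SMC3* numbered 4 in shHNRNPU #2 repeat 1 and 3 in each of the others. Summits at *MAU2* numbered 5 in shHNRNPU #1 repeat 2 and 4 in each of the others. The start percentile of *CTCF* was 92.7 in shHNRNPU #2 repeat 2 and 97.6 to 98 in the others. At the *MAU2* locus 22019 bp downstream, shHNRNPU #2 repeat 1 stood at 69.3 and the others at 51.6 to 54.1.

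The start percentiles of *PDS5A* with the 2 hairpins lay on opposite sides of the shLUC range. Both shHNRNPU #1 libraries, with a mean of 95.9, lay above the shLUC range of 88.8 to 93.5 and both shHNRNPU #2 libraries, with a mean of 85.9, lay below it. The difference between the hairpins was 9.95 points. It was not tested, since 2 libraries against 2 allow no p under 0.05. The share of all genes with this order was not computed, so it has no background.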

How the results depend on the processing

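Of 236 values recomputed under the alternatives, 17 counts or differences moved, 15 differences changed sign and 9 others went to or from 0. The remaining 195 had the same direction or a count within 1.5 times. Of the 195, 20 came from permutation within repeats, which alters only the p-value and so could not change them. The counts of lost and gained loci were 0 under every match, score, list-size and window setting, and with 1 library left out ranged from 0 to 6 lost and 0 to 2 gained. The difference in summits over the 10 genes was −0.5 with lists of one size, and −4.25 to −0.25 with 1 library left out, both extremes from leaving out a shLUC library. With a score of at least 5 or windows of 2 kb, 0 genes had summit numbers without overlap (*RAD21*: 0.25 and −1), and *PDS5A* changed to −0.5 with the score limit. With lists of one size the gene without overlap was *SMC3*, not *RAD21*. With 1 library left out there were 1 or 2, against 10% to 22.2% of all genes. *RAD21* (−2.5 to −1.5) had to be among them, since groups without overlap in 6 libraries have none when 1 is removed. A match distance of 500 bp gave 2 loci in all 6 libraries without overlap, the second at *STAG2*. The share over all loci at that distance was not computed, so this count has no background. A gene-start distance of 500 bp left 0 genes without overlap in start percentile, since shLUC repeat 2 then had no value at *NIPBL*. With 1 library left out there were 1 to 4, with *NIPBL* (13.4 to 19.4) among them for the same reason as *RAD21*. There were 3 without shHNRNPU #1 repeat 2 or shLUC repeat 1. There were 4 without shHNRNPU #2 repeat 2 or shLUC repeat 2, when *CTCF* was among them. Over all genes the share without overlap in either direction was then 26.5% to 32.4% without a shHNRNPU library, and 44.8% and 50% without shLUC repeat 1 and 2, so these counts were near or under the background.

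Small differences in start percentile changed sign. With lists of one size they were 0.276 at *RAD21*, 0.957 at *MAU2* and 0.662 at *PDS5A*. With 1 library left out they ranged from −1.62 to 1.61 at *RAD21* (0.697 without shHNRNPU #1 repeat 2, 0.529 without shHNRNPU #2 repeat 2 and 1.61 without shLUC repeat 1), −3.04 (without shLUC repeat 1) to 8.33 at *SMC1A*, −0.499 (without shHNRNPU #2 repeat 1, and −0.0253 without #1 repeat 1) to 2.26 at *SMC3*, −1.37 to 1.61 (without shHNRNPU #2 repeat 2) at *MAU2* and −2.64 to 2.22 (without shHNRNPU #2 repeat 2, with 0.606 without #2 repeat 1 and 2.15 without shLUC repeat 2) at *PDS5A*. The cause was not tested.

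Repeat numbers shared only a number: deviations of same-numbered libraries correlated at −0.04 to 0.00 over 25519 loci. With the replicate block, permuting within repeats, the smallest p that 9 assignments allow was 0.222, reached by 3 of 20 results, *RAD21* (summits) and *NIPBL* (start percentile) among them. Without read depth, an absent summit sets no limit on accessibility.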
